A study of Homo sapiens with 8 samples.

Results

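Human mitochondrial DNA encodes a small set of respiratory chain proteins, and the mRNAs described here are those that belong to complexes III, IV and V. They are MT-CYB (cytochrome b of complex III), MT-CO1, MT-CO2 and MT-CO3 (the catalytic core subunits of complex IV, cytochrome c oxidase), and MT-ATP6 and MT-ATP8 (membrane subunits of complex V, the ATP synthase). The members were chosen by symbol, and all 6 had a row among the 15982 gene symbols of the count table and passed the filter on low counts. RNA-seq was made from 8 cultures of 143BTK-, an established human osteosarcoma line without thymidine kinase activity. Of these, 4 were transfected with the hsa-miR-101-3p mimic, a synthetic double of the microRNA, and 4 with the scrambled Negative Control #1 mimic, each at 80 pmol with a second dose at 48 h and harvest at 120 h. All cultures had 10 mM galactose in place of glucose, with uridine and 5% dialysed serum, so galactose and transfection are shared by both groups. All libraries come from 1 cell line, and the mimic was added from outside; the level of miR-101-3p reached was not measured here.

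The heavy strand of mitochondrial DNA is transcribed into long RNAs that are cut into single mRNAs, mostly at the tRNAs between them, and all 6 mRNAs come from this strand. Their products are inserted into the inner membrane and joined to subunits made from nuclear genes, and the resulting complexes pass electrons to oxygen, pump protons and make ATP. Galactose yields little net ATP by glycolysis in cultured cells, which are then more dependent on these complexes. The comparison asks which of the mRNAs differ in cells given the mimic, in a series whose title concerns mitochondrial metabolism.

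The mature microRNA is shown because its seed, in capitals at bases 2 to 8 from the 5′ end, is the part that pairs with target mRNAs. The sequence is from RefSeq (GRCh38.p14, chr9:4850345-4850365, plus strand).
hsa-miR-101-3p: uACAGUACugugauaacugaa
None of the 6 mRNAs, as annotated in GENCODE 29, holds the matches to this seed, written as DNA GTACTGT and TACTGTA. The 2 words overlap each other, and only the sense strand of each mRNA was searched. Among the longest coding transcript of each nuclear gene, cut from its 5′ end to the length of the mRNA, GTACTGT occurred in 0.391% at the length of MT-ATP8 and in 4.68% at the length of MT-CO1. Few of these 5′ parts hold the word, and their base composition was not matched to the members. The absence of the word says only that these letters are not there.

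MT-ATP8 and MT-ATP6 lie on 1 mRNA and their reading frames share 46 bases, shown in capitals with 20 further bases of each gene (GRCh38, chrM:8507-8572 and chrM:8527-8592, plus strand). Reads in the shared part can belong to either gene, and how the authors counted them is not given in the sources used here.
MT-ATP8 end: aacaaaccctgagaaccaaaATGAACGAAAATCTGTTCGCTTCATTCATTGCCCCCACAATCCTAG
MT-ATP6 start: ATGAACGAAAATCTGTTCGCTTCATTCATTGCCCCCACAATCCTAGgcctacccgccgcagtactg
The end of MT-ATP6 and the start of MT-CO3 share 1 base, in capitals (chrM:9188-9207 and chrM:9207-9226), so these genes too have no tRNA between them.
MT-ATP6 end: acctgcacgacaacacataA
MT-CO3 start: Atgacccaccaatcacatgc

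With miR-101, 5 of the 6 mRNAs fell, all but MT-ATP8, with an adjusted p under 0.05 in the quasi-likelihood test of edgeR. A call means passing this threshold throughout, and each log2 fold change sets miR-101 against the negative control as miR-101 over control. Over all 15905 tested genes, 3.32% were called lower, 3.3% higher and 6.62% in either direction. The complex IV mRNAs had fitted levels 1.48-fold to 1.69-fold lower, and those of complexes III and V 1.28-fold to 1.39-fold lower. The log2 fold changes of the 6 ran from -0.76 (MT-CO3) to -0.36 (MT-ATP8), against a median of -0.005 for all tested genes. For 5 of the 6 every miR-101 library lay below every control library, which held for 7.34% of all tested genes. Those 5 are then lower in any pairing of libraries. MT-CYB, whose groups overlapped, was lower in 4 of 4 same-numbered pairs. The labels state no pairing, and the share of all genes lower in 4 of 4 pairs was not counted. Since total RNA was compared, fewer mitochondrial transcripts per cell and fewer mitochondria per cell cannot be told apart here.

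The libraries held 17603054 to 20160267 counts. The 6 mRNAs together took 0.153%, 0.138%, 0.154% and 0.134% of the counts in miR-101 replicates 1 to 4, against 0.247%, 0.222%, 0.255% and 0.189% in control replicates 1 to 4. The means were 0.145 ± 0.00995% with miR-101 and 0.228 ± 0.0299% in the control (mean ± SD of 4 libraries per group), and the groups did not overlap. Libraries of replicates 1 and 2 of the same group lay closer together than any other pair, with a chi-square per degree of freedom of 3.82 in miR-101 and 4.73 in control libraries, against 14.5 to 70.9 for other pairs. None of these pairs agreed within sampling noise, so all 8 libraries were kept as samples. The labels speak of 4 independent transfections without dates or a map to the replicate numbers, and whether replicates 1 and 2 were transfected separately was not settled from the files. If they were not, n is below 4 and the p-values are too small. Of 8 markers of mesenchymal and osteoblast-lineage cells, 6 had a row. Their CPM summed to 1731 to 2890 with miR-101 and 1877 to 2431 in the control. EdgeR called 1 of them, RUNX2, as higher, beside 6.62% of all tested genes in either direction. DESeq2 called 2, beside 10.7%. The sum hides single markers, as 3 of the 6 had a negative log2 fold change while COL1A1 had 1.10 (edgeR adjusted p = 0.0619). Of 4 epithelial markers EPCAM had a row (9.30 to 17.01 CPM with miR-101, 5.11 to 10.04 CPM in control libraries), and of 4 blood cell markers none did.

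**Figure D1:**
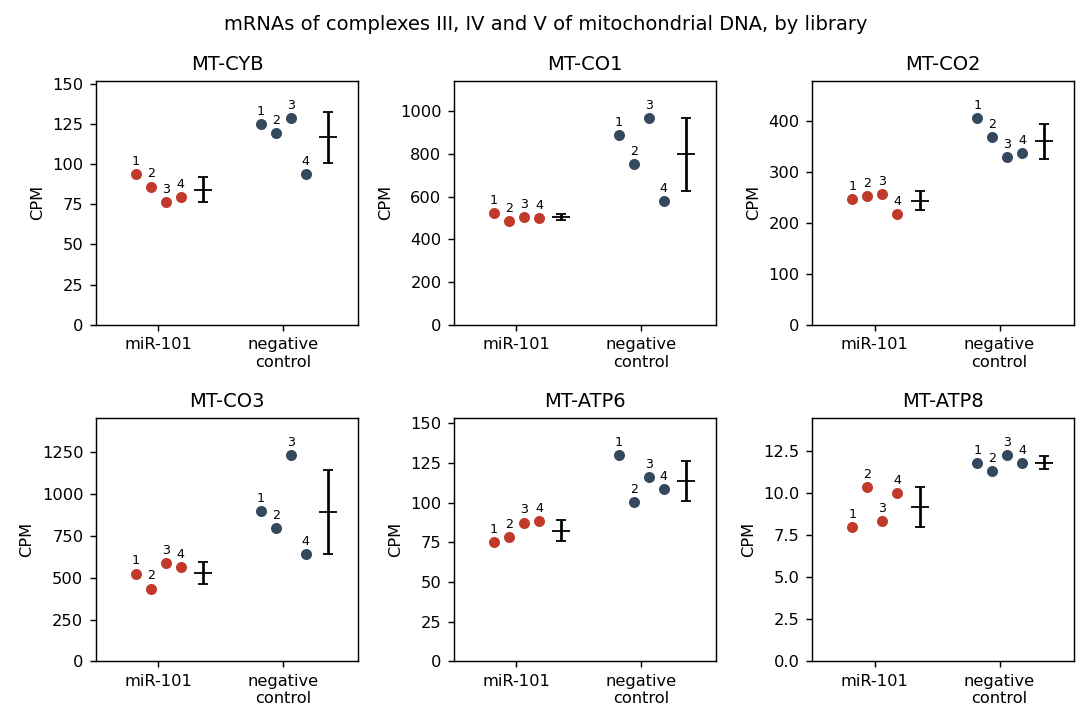
Read counts scaled by TMM-adjusted library size (CPM, y axis from 0) of each of the 6 mRNAs in the 4 miR-101 and 4 negative control libraries; digits are replicate numbers and bars are the mean ± SD. The groups are apart in every panel but MT-CYB, where miR-101 replicate 1 (94.1 CPM) and control replicate 4 (93.6 CPM) meet, and control libraries are more spread than miR-101 libraries in MT-CO1 and MT-CO3.

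Complex IV passes electrons from cytochrome c to oxygen, and MT-CO1 carries the heme and copper centre at which oxygen is reduced. MT-CO1 (ENSG00000198804.2, GRCh38, chromosome M, 5904 to 7445) had 522, 488, 502 and 498 CPM in miR-101 replicates 1 to 4. In control replicates 1 to 4 it had 890, 755, 967 and 580 CPM. The miR-101 libraries were close to each other, while control replicate 4 lay well below the other controls. MT-CO1 averaged 502 ± 14.1 CPM after miR-101 and 798 ± 170.0 CPM in control libraries (mean ± SD of 4 libraries per group), a log2 fold change of -0.67 ± 0.146 (standard error) with an edgeR adjusted p of 0.0222. The call was lost on leaving out miR-101 replicate 1, 2 or 3, or control replicate 1 or 2 (edgeR adjusted p of 0.0658, 0.0771, 0.0621, 0.0676 and 0.0507), with log2 fold changes of -0.61 to -0.69 there. Without control replicate 4 the log2 fold change was -0.79 (edgeR adjusted p = 0.00229).

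MT-CO2 binds the copper centre that takes the electrons from cytochrome c. MT-CO2 (ENSG00000198712.1, 7586 to 8269) had 248, 252, 257 and 217 CPM in miR-101 replicates 1 to 4, against 405, 368, 329 and 336 CPM in control replicates 1 to 4. The lowest control library stood above the highest miR-101 library. Replicate 4 of miR-101 lay below the other miR-101 libraries, which were close to each other. MT-CO2 averaged 243 ± 18.3 CPM after miR-101 and 360 ± 34.8 CPM in control libraries (mean ± SD of 4 libraries per group), with a log2 fold change of -0.56 ± 0.105 and an edgeR adjusted p of 0.0108. MT-CO2 was the 1 member that stayed called whichever of the 8 libraries was omitted, with an edgeR adjusted p of at most 0.0427.

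MT-CO3 is the core subunit without a metal centre, next to the proton-pumping subunits. MT-CO3 (ENSG00000198938.2, 9207 to 9990) had 526, 436, 588 and 563 CPM in miR-101 replicates 1 to 4. In control replicates 1 to 4 it had 900, 795.5, 1236 and 642 CPM. Control replicate 3 was the highest and control replicate 4 the lowest control library, in the same order as for MT-CO1. MT-CO3 averaged 528 ± 66.5 CPM after miR-101 and 893 ± 252 CPM in control libraries. The log2 fold change was -0.76 ± 0.185 (edgeR adjusted p = 0.0345), the largest fall in fitted value among the 13 mRNAs of mitochondrial DNA and also the one with the largest standard error of the 6. It was -0.57 without control replicate 3 and -0.89 without control replicate 4 (edgeR adjusted p = 0.0436 and 0.00882). In the other 6 fits that left out a library the call was lost, with edgeR adjusted p of 0.0979, 0.110, 0.0655 and 0.0586 without miR-101 replicates 1 to 4, and 0.0795 and 0.0606 without control replicates 1 and 2.

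Cytochrome b is the subunit of complex III that holds its ubiquinol and ubiquinone binding sites, and its mRNA is the last on the heavy-strand RNA. MT-CYB (ENSG00000198727.2, 14747 to 15887) had 94.1, 86.1, 76.7 and 79.4 CPM in miR-101 replicates 1 to 4, against 125, 120, 129 and 93.6 CPM in control replicates 1 to 4. The groups met at miR-101 replicate 1 and control replicate 4, with averages of 84.0 ± 7.75 CPM after miR-101 and 117 ± 15.9 CPM in control libraries. The log2 fold change was -0.47 ± 0.122, with an edgeR adjusted p of 0.0428 that lay just under the threshold. The call held without control replicate 4 (log2 fold change -0.57, edgeR adjusted p = 0.00677). It was lost in the other 7 fits that left out a library, without miR-101 replicates 1 to 4 (edgeR adjusted p of 0.0701, 0.1095, 0.115 and 0.0895) and without control replicates 1 to 3 (0.117, 0.113 and 0.0659).

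MT-ATP6 forms the proton channel of the ATP synthase, and MT-ATP8 is a small membrane subunit beside it. MT-ATP6 (ENSG00000198899.2, 8527 to 9207) had 75.0, 78.6, 87.5 and 88.5 CPM in miR-101 replicates 1 to 4, against 130.1, 100.5, 116 and 108.5 CPM in control replicates 1 to 4. The groups were apart, with miR-101 replicate 4 nearest to control replicate 2, and averaged 82.4 ± 6.65 CPM after miR-101 and 114 ± 12.6 CPM in control libraries. The log2 fold change was -0.47 ± 0.109 with an edgeR adjusted p of 0.0295. The call was lost on omission of miR-101 replicates 1, 2 or 3 or control replicate 1 (edgeR adjusted p of 0.105, 0.103, 0.0573 and 0.0913).

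MT-ATP8 (ENSG00000228253.1, 8366 to 8572) had 149, 208, 171 and 185 reads in miR-101 replicates 1 to 4, against 215, 217, 198 and 247 reads in control replicates 1 to 4. These are the fewest reads of any member. On the CPM scale it stood at 9.20 ± 1.19 with miR-101 and 11.8 ± 0.389 in the control (mean ± SD of 4 libraries per group), and the groups did not overlap. Its log2 fold change of -0.36 ± 0.132 was not called (edgeR adjusted p = 0.136, unadjusted 0.0196). In replicates 1 and 2 alone it was called (log2 fold change -0.33, edgeR adjusted p = 0.0484).

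**Figure D2:**
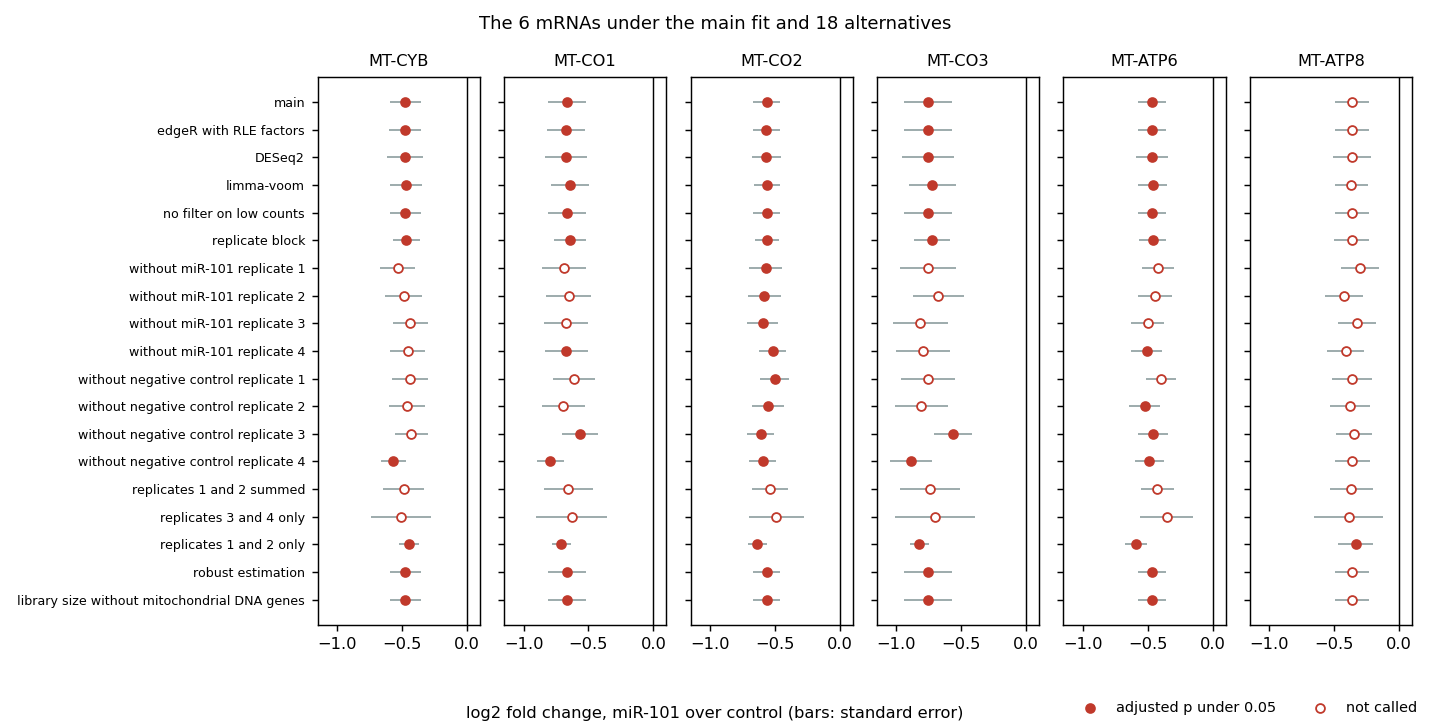
log2 fold change of each mRNA (x axis, bars are the standard error) with all 8 libraries in edgeR and under 18 alternatives (rows); filled points have an adjusted p under 0.05 and open points do not. All values are negative, MT-CO2 stays filled in each row that leaves out 1 library, and no point is filled with replicates 1 and 2 summed or with replicates 3 and 4 only.

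The calls changed when libraries were left out or merged. Omitting miR-101 replicate 3 left 1 member called, as did omitting miR-101 replicate 1 or 2. Fewer samples enter such fits, so effects of sample number and of the closeness of replicates 1 and 2 cannot be told apart here. With their counts summed to 1 sample per group, all 6 log2 fold changes stayed negative and none was called (edgeR adjusted p of 0.116 for MT-CO2 to 0.362 for MT-ATP8, 5 with an unadjusted p under 0.05 and 0.0519 for MT-ATP8). That fit called 0.421% of all genes lower, and 173 genes in either direction, against 1053 with all libraries kept apart. In replicates 3 and 4 alone the log2 fold changes were -0.35 (MT-ATP6) to -0.70 (MT-CO3), and edgeR called none of the 6, 1 of them (MT-CO2) with an unadjusted p under 0.05, and 6 genes over the whole table, with 0.0% of all genes called lower. In replicates 1 and 2 alone all 6 were called, among 5126 genes of the table, with 16.4% of all genes called lower. The share of all genes with an unadjusted p under 0.05 was not counted in the summed fit or in replicates 3 and 4. Within same-numbered pairs the log2 differences in CPM of replicates 1 to 4 were -0.71, -0.54, -0.36 and -0.64 for MT-CO2. For MT-CO1 they were -0.77, -0.63, -0.95 and -0.22, and for MT-CO3 they were -0.77, -0.87, -1.07 and -0.19. Pair 4 had the smallest difference in MT-CO1, MT-CO3, MT-CYB and MT-ATP6, but pair 3 in MT-CO2 and pair 2 in MT-ATP8.

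Per length, the 6 mRNAs covered a wide range of levels. All mitochondrial DNA genes of the count table together took 0.208% to 0.229% of the counts with miR-101 and 0.247% to 0.370% in the control. All members but MT-CYB have near-identical copies in the nucleus, as described below. How reads that fit both places were assigned is not given in the sources used here. The part of this assignment in the levels and in their order was not tested. The following values are levels in CPM per kb of annotated mRNA, as mean ± SD with n = 4. MT-CO3 stood at 674 ± 84.8 with miR-101 and 1139 ± 321 in the control, and MT-ATP8 was the lowest at 44.4 ± 5.74 with miR-101 and 57.1 ± 1.88 in the control. MT-CO2 (356 ± 26.7 with miR-101, 526 ± 50.8 in the control) and MT-CO1 (326 ± 9.17 with miR-101, 517 ± 110.2 in the control) were neighbours whose levels overlapped in both groups, and MT-CO2 was the higher in 6 of 8 libraries. The other neighbours did not overlap in either group, in the order MT-CO3, MT-CO2 and MT-CO1, then MT-ATP6 (121 ± 9.77 with miR-101, 167 ± 18.5 in the control), MT-CYB (73.7 ± 6.79 with miR-101, 102 ± 13.9 in the control) and MT-ATP8. The order was the same in both groups. MT-ATP6 and MT-ATP8 differed in level per length although they share an mRNA. The 46 shared bases enter both lengths, 207 bases for MT-ATP8 and 681 for MT-ATP6. How reads there were counted is not given, and their part in this difference was not tested.

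Whether the size of the fall differed between members could hardly be tested with these libraries. Of the 15 log2 ratios between 2 members within a library, none passed at an adjusted p under 0.05 when the group labels were permuted (two-sided, exact, 70 permutations). The smallest unadjusted p was 0.143, and the smallest p that 4 against 4 libraries allow is 0.0286. A single ratio at that limit would have an adjusted exact p of 0.429, and 9 of the 15 would have to reach it for any to pass, so the absence of a pass does not show that the members fell alike. The widest difference was in MT-CO3 over MT-ATP8, with a mean log2 ratio of 5.84 ± 0.33 with miR-101 and 6.20 ± 0.365 in the control (mean ± SD of 4 libraries per group). That is a difference of -0.36 (exact p = 0.229, Benjamini-Hochberg adjusted over the 15 ratios 0.612). For MT-CYB over MT-CO1 the difference was 0.17 (exact p = 0.143, adjusted 0.612), and for MT-ATP6 over MT-ATP8 it was -0.095 (exact p = 0.429, adjusted 0.679). The count ratio of MT-CO3 to MT-CO2 was 2.13, 1.73, 2.29 and 2.60 in miR-101 replicates 1 to 4, against 2.22, 2.16, 3.75 and 1.91 in control replicates 1 to 4. Control replicate 3 stood apart from the other 7 libraries in this ratio.

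Around the group means the members did not all move together. MT-CO1 went with MT-CO3 (Pearson r of 0.86 over the 8 libraries, on log2 CPM less the group mean) and with MT-CYB (0.846). MT-CO2 had an r of 0.195 with MT-CO1 and of -0.157 with MT-CO3, and MT-ATP6 and MT-ATP8 one of 0.252. These values describe 8 libraries that share depth and scaling between genes. The mitochondrial ribosomal RNAs, targets of the Ribo-zero Gold depletion step, varied more. MT-RNR2, the large one, had 167, 132, 159 and 268 CPM in miR-101 replicates 1 to 4, against 348, 90.8, 332 and 67.6 CPM in control replicates 1 to 4. Control replicates 1 and 3 were high and control replicates 2 and 4 low, and neither rRNA was called (MT-RNR2 log2 fold change -0.21 ± 0.476, edgeR adjusted p = 0.845, with no call by DESeq2 or limma-voom and none at an unadjusted p under 0.05). Omitting 1 library moved the log2 fold change of MT-RNR2 between -0.50 and 0.15. With group means subtracted and all 8 libraries pooled, MT-RNR2 had an r of 0.867 with MT-CO1, 0.806 with MT-CO3 and 0.738 with MT-ATP6. The r was 0.589 with MT-CYB, 0.194 with MT-ATP8 and 0.0226 with MT-CO2. Controls weigh most in these values, as the SD of MT-RNR2 was 151 CPM there and 59.5 CPM with miR-101. Among miR-101 libraries, replicate 4 had the most MT-RNR2 (268 CPM) but less MT-CO1 (498 CPM) than replicate 1 (522 CPM). No r was taken for each group alone. The part of the MT-RNR2 variation in the group difference was not tested.

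**Figure D3:**
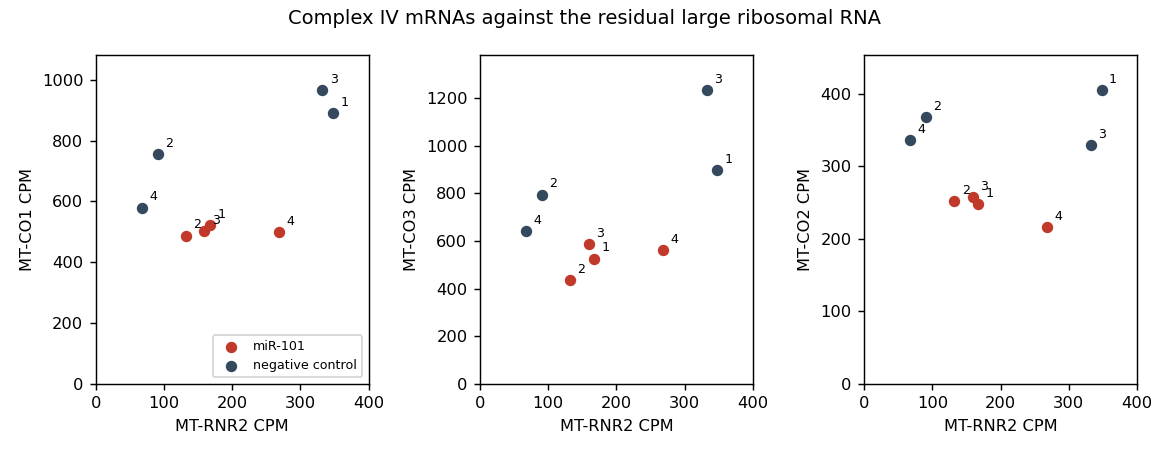
CPM of MT-CO1, MT-CO3 and MT-CO2 (y axes from 0) against CPM of MT-RNR2 (x axis) in the 4 miR-101 and 4 negative control libraries, with replicate numbers. Among controls, replicates 1 and 3 are high in MT-RNR2, MT-CO1 and MT-CO3, while MT-CO2 is lower in control replicate 3 (329 CPM) than in control replicate 4 (336 CPM).

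Beside the 6, the count table holds the 7 complex I mRNAs of mitochondrial DNA. All 7 had negative log2 fold changes (median -0.42), as had 50.7% of all tested genes. Of the 7, MT-ND2 and MT-ND1 were called lower, with 3.32% of all tested genes called lower. MT-ND2 had a log2 fold change of -0.62 ± 0.095 and MT-ND1 of -0.56 ± 0.109 (edgeR adjusted p = 0.00444 and 0.0129). The MT-ND1 call was lost when miR-101 replicate 1 or 2 was omitted (edgeR adjusted p = 0.0545 and 0.0524), and with replicates 1 and 2 summed neither MT-ND2 nor MT-ND1 was called (0.0588 and 0.114). Reads on the 6 mRNAs were 3.28, 2.93, 3.97 and 3.43 times those on complex I mRNAs in miR-101 replicates 1 to 4, against 3.67, 3.88, 4.67 and 3.99 times in control replicates 1 to 4. The groups overlapped in this ratio, but it was lower with miR-101 in 4 of 4 same-numbered pairs, and the difference was not tested. In map order, all mRNAs from MT-ND1 to MT-CO3 were called with all 8 libraries except MT-ATP8, and of the mRNAs after MT-CO3 MT-CYB was called while MT-ND3, MT-ND4L, MT-ND4, MT-ND5 and MT-ND6 were not. MT-ND6, from the other strand, had the smallest fitted change of the 13 mRNAs (log2 fold change -0.21 ± 0.179, edgeR adjusted p = 0.532). Over the 12 heavy-strand mRNAs the log2 fold change had a Spearman rho of 0.552 with the distance of the gene from the start of MT-RNR1. With GC content rho was -0.532 and with length -0.238. With the log2 control level in CPM per kb it was -0.615, but the same control libraries enter the log2 fold change. That value can be negative for this reason alone. These are descriptions of 12 genes measured in the same libraries, several of them cut from 1 RNA.

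**Figure D4:**
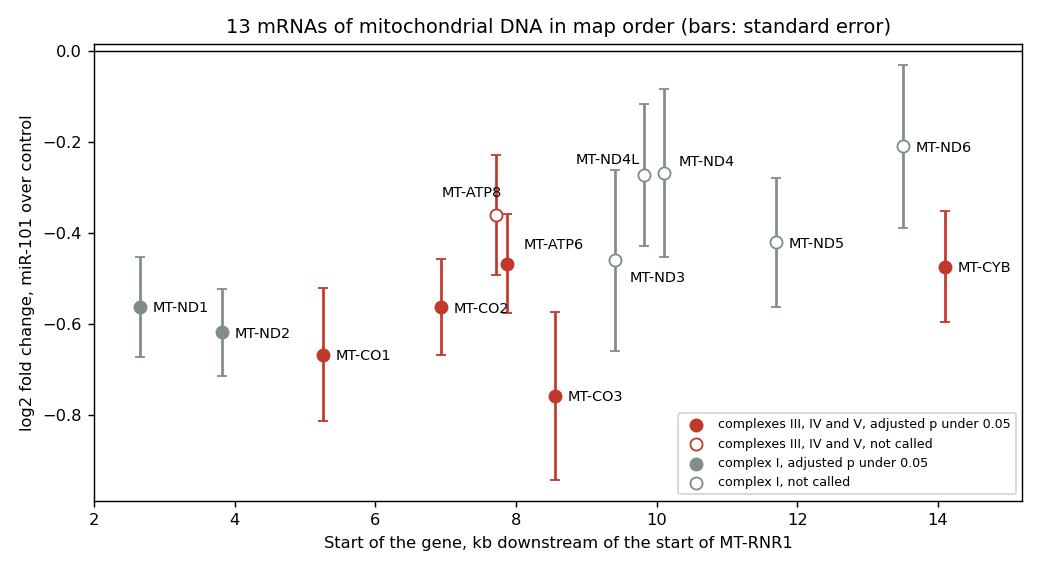
log2 fold change, miR-101 over negative control (y axis, bars are the standard error), of the 13 mRNAs of mitochondrial DNA against the distance in kb of the gene's start from the start of MT-RNR1 (x axis); red marks complexes III, IV and V, grey complex I, and filled points have an edgeR adjusted p under 0.05. All points lie below 0, MT-CO3 the lowest and MT-ND6 the highest.

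Mitochondrial DNA has copies in the nucleus, and a block on chromosome 1 holds near-identical copies of 5 of the members (GRCh38, GENCODE 29), all but MT-CYB. Lined up without gaps from the first base, MTATP6P1 was 98.53% identical to MT-ATP6 over 681 bases, and MTCO1P12 was 98.16% identical to MT-CO1 over 762 bases. The copies of MT-CO2, MT-ATP8 and MT-CO3 were 98.26%, 97.58% and 98.17% identical over 575, 207 and 547 bases. The comparison stopped where a copy shifted. It left out the rest of MT-CO1, MT-CO2 and MT-CO3, which are 1542, 684 and 784 bases long. Within the compared bases the longest stretch without a difference in any of the 5 was 197 bases, in MT-CO1. For MT-CO1 and MT-ATP6, 60-base stretches with the most differences within the compared bases are shown, with the differing bases in capitals. They are places where a read could be told apart. They lie at chrM:6207-6266 with chr1:631377-631436, and at chrM:8642-8701 with chr1:633811-633870.
MT-CO1 stretch: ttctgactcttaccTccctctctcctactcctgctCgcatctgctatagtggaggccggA
MTCO1P12 stretch: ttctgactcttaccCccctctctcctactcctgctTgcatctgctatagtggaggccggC
MT-ATP6 stretch: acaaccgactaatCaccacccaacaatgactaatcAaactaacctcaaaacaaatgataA
MTATP6P1 stretch: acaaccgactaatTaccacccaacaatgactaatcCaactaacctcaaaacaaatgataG

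Of these copies MTATP6P1 and MTCO1P12 had rows in the count table. MTATP6P1 had 140, 160, 185 and 136 reads in miR-101 replicates 1 to 4, against 241, 219, 162 and 244 reads in control replicates 1 to 4. Its reads came to 8.33% to 10.4% of those on MT-ATP6 with miR-101 and 8.64% to 11.4% in the control, with overlapping ranges. It fell with a log2 fold change of -0.54 ± 0.137 (edgeR adjusted p = 0.0415). MTCO1P12 had 262, 207, 212 and 229 reads in miR-101 replicates 1 to 4, against 404, 263, 254 and 276 in control replicates 1 to 4, or 2.07% to 2.70% of the MT-CO1 reads with miR-101 and 1.63% to 2.49% in the control. Its log2 fold change was -0.46 ± 0.186 and it was not called (edgeR adjusted p = 0.175). How reads that fit both places were assigned is not given in the sources used here, so the counts of the 5 members with such copies are uncertain by an unknown amount. MT-CYB is not in this block.

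The counts for the nuclear-encoded partners of the members are given beside the 6.62% of all tested genes called in either direction. At an unadjusted edgeR p under 0.05, 10.9% of all tested genes were lower. Of 9 nuclear subunits of complex III none was called by edgeR, DESeq2 or limma-voom, and none had an unadjusted edgeR p under 0.05 (median log2 fold change -0.05). UQCRFS1, the iron-sulfur protein, had -0.24 ± 0.114, UQCRC1, a core subunit, -0.18 ± 0.098, and UQCR10 -0.11 ± 0.114 (edgeR adjusted p = 0.250, 0.325 and 0.600). Of 12 tested nuclear subunits of complex IV edgeR and limma-voom called none, DESeq2 called COX8A, and 1 had an unadjusted edgeR p under 0.05 (median -0.12). COX8A stood at 108 ± 6.07 CPM after miR-101 and 132 ± 11.7 CPM in control libraries (mean ± SD of 4 libraries per group), with a log2 fold change of -0.30 ± 0.099 (edgeR adjusted p = 0.103, and 0.0273 without control replicate 4). COX6B1 and COX5A had log2 fold changes of -0.19 and -0.12.

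Of 18 nuclear subunits of complex V, including its inhibitor ATPIF1, 1 fell and none rose (median -0.11), with 3.32% of all tested genes called lower, so this count is no result about the list. The gene was ATP5B, the catalytic beta subunit, at 479 ± 78.9 CPM after miR-101 and 756 ± 68.4 CPM in control libraries (mean ± SD of 4 libraries per group). Its log2 fold change of -0.66 ± 0.131 (edgeR adjusted p = 0.0145) lost the call on omission of miR-101 replicate 1 or 2 (edgeR adjusted p = 0.0535 and 0.0585) and with replicates 1 and 2 summed (0.127).

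Set against the sum of their nuclear partners in the same library, the mitochondrial mRNAs of complex IV took 0.561 to 0.724 CPM per nuclear CPM after miR-101 and 0.926 to 1.10 in the control, with means of 0.664 ± 0.0738 and 1.005 ± 0.0703 for miR-101 and control libraries (SD, n = 4 each). For complex V the ratio was 0.0275 to 0.0310 with miR-101 and 0.0319 to 0.0407 in the control, and for complex III it was 0.0492 to 0.0721 with miR-101 and 0.0719 to 0.0904 in the control. The groups did not overlap for complexes IV and V and met for complex III, where the ratio was lower with miR-101 in 4 of 4 same-numbered pairs. The nuclear sums for complex IV were 1935 ± 235 CPM after miR-101 and 2036 ± 371 CPM in control libraries, and the mitochondrial sums were 1274 ± 71.5 CPM after miR-101 and 2051 ± 413.5 CPM in control libraries. These ratios were described and not tested.

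**Figure D5:**
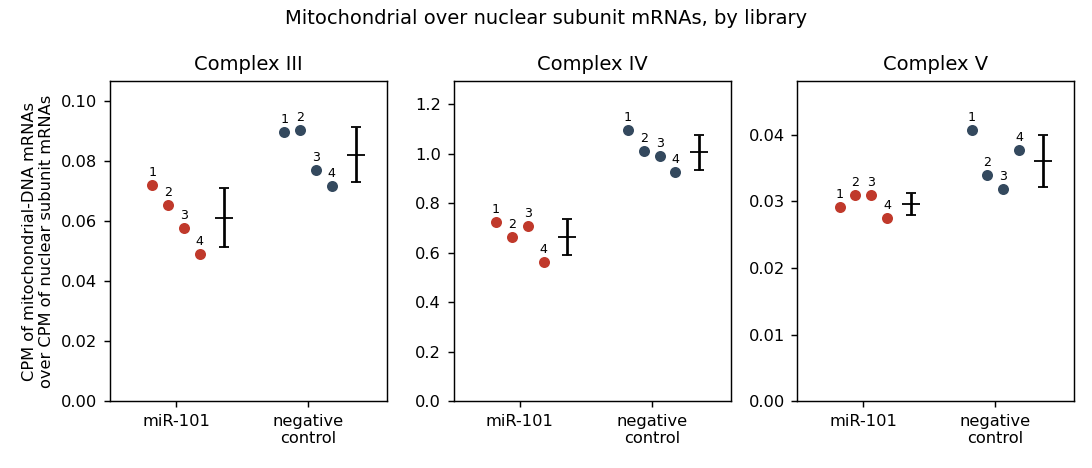
Summed CPM of the mitochondrial-DNA mRNAs over the summed CPM of the nuclear subunit mRNAs of complexes III, IV and V (y axes from 0) in the 4 miR-101 and 4 negative control libraries; digits are replicate numbers and bars the mean ± SD. For complex IV all miR-101 libraries lie at or below 0.724 and all controls at or above 0.926.

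Among 26 assembly factors of complex IV, CMC2 fell (log2 fold change -0.46 ± 0.115, edgeR adjusted p = 0.0382) and none rose, a count near the 3.32% of all tested genes called lower. The call for CMC2, whose locus overlaps CENPN on the other strand, was lost on leaving out miR-101 replicate 1, 2 or 3, or control replicate 1 or 2, where the highest edgeR adjusted p was 0.128. For complex III none of 6 assembly factors was called by edgeR, DESeq2 or limma-voom (1 at an unadjusted p under 0.05), and TTC19, UQCC3 and BCS1L had log2 fold changes of -0.25, -0.22 and -0.14. For complex V none of 5 was called by these tools (1 at an unadjusted p under 0.05), with C7orf55, ATPAF2 and ATPAF1 at -0.56, 0.23 and -0.16. At that unadjusted threshold 10.9% of all tested genes were lower. TTC19, UQCC3, BCS1L, C7orf55, ATPAF1 and ATPAF2 overlap other genes and are uncertain.

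The members' mRNAs are made by POLRMT, the mitochondrial RNA polymerase, with TFAM, which packages and bends the DNA, and TFB2M, which opens the promoter. Of 13 transcription and DNA factors 1 fell, TFB2M, and edgeR called none higher, while 6.62% of all tested genes were called in either direction. TFB2M stood at 18.9 ± 2.59 CPM after miR-101 and 48.1 ± 0.676 CPM in control libraries (mean ± SD of 4 libraries per group), with a log2 fold change of -1.35 ± 0.114 (edgeR adjusted p = 0.000542), and it was called whichever library was omitted but not in replicates 3 and 4 alone. TFAM averaged 346 ± 7.82 CPM after miR-101 and 287 ± 20.3 CPM in control libraries, with no overlap and a log2 fold change of 0.27 ± 0.091 (edgeR adjusted p = 0.104). DESeq2 called TFAM higher (adjusted p = 0.0262). POLRMT had a log2 fold change of 0.051 ± 0.142 (edgeR adjusted p = 0.872).

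Once made, these mRNAs are kept stable by LRPPRC, which binds them with SLIRP. Among 23 factors of mitochondrial RNA processing and stability none was called by edgeR, DESeq2 or limma-voom. At an unadjusted edgeR p under 0.05 there were 1 higher and 1 lower, with 10.9% of all tested genes lower at that threshold. LRPPRC stood at 799 ± 34.2 CPM after miR-101 and 843 ± 92.9 CPM in control libraries (log2 fold change -0.077 ± 0.104). FASTKD5, which processes mRNA ends that have no tRNA beside them, had -0.27 ± 0.095 (edgeR adjusted p = 0.126), and its locus overlaps UBOX5. REXO2 and SUPV3L1 had log2 fold changes of 0.22 and -0.20. Of 13 translation factors GFM1, an elongation factor, rose (log2 fold change 0.41 ± 0.095, edgeR adjusted p = 0.0281) and none fell, with 3.3% of all tested genes called higher, so the count says nothing particular of the list. LXN overlaps GFM1 on the other strand. The GFM1 call was lost on leaving out miR-101 replicate 1, 2 or 4, or control replicate 1 or 2, where the highest edgeR adjusted p was 0.0973.

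Outside mitochondrial DNA, the genes whose pattern was most like the mean log2 CPM of the 6 members were found among 9314 tested genes of at least 10 CPM. Over the 8 libraries these were FAM3C (Pearson r = 0.99, Spearman rho = 0.929), UBE2D1 (r = 0.989, rho = 0.81), MUM1L1 (r = 0.985, rho = 0.786), FRMD5 (r = 0.985, rho = 0.929) and NUPL2 (r = 0.985, rho = 0.952). All 5 were called lower with miR-101, by log2 fold changes of -0.37 (NUPL2) to -1.65 (MUM1L1), and this r includes the difference between groups. After each group's mean was subtracted the closest were SPPL2A (r = 0.991, rho = 1.0), TMF1 (r = 0.984, rho = 0.905), KCTD3 (r = 0.98, rho = 0.929), WWP1 (r = 0.977, rho = 0.976) and LYPLA1P3 (r = 0.977, rho = 0.976). None of these was called, and their log2 fold changes ran from -0.17 (SPPL2A) to 0.23 (TMF1). These values describe 8 libraries and say nothing of a shared function.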

How the data were processed

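RNA-seq counts of 8 libraries were analysed (4 miR-101, 4 negative control). The authors deposited raw counts of reads for each gene symbol. The tools named by the submitters' processing notes are TopHat2 2.0.14, StringTie 1.2.4 and bcl2fastq 2.18.0.12, with build hg38. Which program counted the reads, with what annotation and strand setting, is not given in the sources used here. Genes were tested over the whole table with edgeR 4.0.16 in R 4.3.3 (filterByExpr, TMM, glmQLFit, glmQLFTest, group as the only term, Benjamini-Hochberg adjustment). In simulated data the fit called 11 of 100 genes changed by a log2 of 0.5 and 84 of 100 changed by 1.0. It made 9 false calls there. Most changes of 0.5 were thus missed, and the lack of a call does not show that a gene was unchanged. CPM use TMM-adjusted library sizes. DESeq2 1.42.0, limma-voom (limma 3.58.1), RLE factors, no filter, robust estimation, library sizes without mitochondrial DNA genes, omission of each library, replicates 1 and 2 summed or alone, replicates 3 and 4 alone and the replicate number as a block were alternatives. Log2 ratios of counts used a pseudocount of 0.5. Same-numbered libraries deviated together from their group means (correlation over genes of 0.359, 0.486, 0.199 and 0.205 for numbers 1 to 4). Some crossed numbers did so as strongly. The correlation was 0.423 for miR-101 replicate 1 with control replicate 2, and 0.416 for miR-101 replicate 2 with control replicate 1. It was 0.423 for miR-101 replicate 4 with control replicate 3. These values do not single out the same-numbered pairs, and the labels state no pairing. The main fit used no pairs, and same-numbered pairs entered only the replicate block, the sign-flip test and the descriptions by pair. The p-values measure the spread between these libraries, which may in part be technical for replicates 1 and 2. Sequences, lengths and loci are from GENCODE 29 (GRCh38) and RefSeq. The members and gene lists were chosen with earlier results of these data known. Beside the members, called genes of each list were named, or the 3 with the smallest p where none was called. TFB2M, TFAM, POLRMT and LRPPRC were always named, as were the 5 most alike genes on each scale.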

Additional observations from a re-analysis of the deposited data

Results flagged for a closer look

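Among 82 groups of 4 libraries checked, 4 had a highest or lowest library far from the others, and chance alone marks about 1 group in 20. None was a group of the 6 members. COX8A had 115 CPM in its lowest control library, with the next at 137 CPM. LRPPRC had 982 CPM in its highest control library, with the next at 804 CPM. TFAM had 317 CPM in its highest control library, with the next at 279 CPM. TTC19 had 57.2 CPM in its lowest control library, with the next at 66.7 CPM.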

How the results depend on the processing

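All 6 members kept a negative log2 fold change under each of the 18 alternatives. Calls were the same with RLE factors, DESeq2, limma-voom, no filter, robust estimation, library sizes without mitochondrial DNA genes and the replicate block, which changed no call of a member (5 of 6 called in each). The block called 1676 genes in all and DESeq2 1706, against 1053. With the replicate block as a paired sign-flip test, 0 of the 15 ratios were called, as in the unpaired test, but 4 pairs allow no p under 0.125. Leaving out 1 library, the log2 fold change ran from -0.57 to -0.43 for MT-CYB, -0.79 to -0.57 for MT-CO1, -0.61 to -0.50 for MT-CO2, -0.89 to -0.57 for MT-CO3, -0.52 to -0.40 for MT-ATP6 and -0.43 to -0.30 for MT-ATP8. Between 1 and 5 members were called there, 488 to 1419 genes in all, and 2 to 10 of the 134 genes of the other lists, against 6 with all libraries. The count of genes fell to between 488 and 840 without any 1 miR-101 library or control replicate 1 or 2, and was 1282 and 1419 without control replicates 3 and 4; the cause was not tested.

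With replicates 1 and 2 summed, 0 members, 173 genes in all and 1 list gene were called, and the log2 fold changes were -0.49 (MT-CYB), -0.65 (MT-CO1), -0.54 (MT-CO2), -0.74 (MT-CO3) and -0.43 (MT-ATP6). With replicates 3 and 4 only, 0 members, 6 genes and 0 list genes were called, at -0.51, -0.63, -0.49, -0.70 and -0.35 for the same mRNAs. With replicates 1 and 2 only, 5126 genes, 44 list genes and all 6 members were called, MT-ATP8 at -0.33. Fewer samples enter each of these fits. MT-ATP8 had the fewest reads of the members, 149 to 247 per library.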
